A study of Gallus gallus with 6 samples.

Results

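The brush-border peptidases described here are 7 genes, MEP1A, MEP1B, CPO, ACE, ANPEP, DPP4 and ENPEP, out of 27656 genes in the deposited table. They were taken by symbol as membrane peptidases of the enterocyte brush border, and each symbol had 1 row. The set was also selected on measured values, since the differences in counts between the LPS+LR21 and LPS libraries were known when it was drawn up. The members' differences between the groups are therefore a description. The calls of the fit over all genes are printed for them beside the background, and nothing is supported with them. RNA was sequenced from macrophages sorted by flow cytometry out of broiler ileum with KUL01, an antibody that binds a chicken mannose receptor. The LPS+LR21 birds had been injected with lipopolysaccharide (LPS), an inflammatory component of bacterial outer membranes, and gavaged with Lactobacillus reuteri. The LPS birds had the injection without the gavage. Each group had 3 libraries. Every bird had thus received LPS, and the labels give no uninjected group, age, sex, dose or time, and do not say whether a library is 1 bird or a pool. The LPS+LR21 libraries carry the column names LR1_2, LR3 and LR4, and the LPS libraries LPS1, LPS2 and LPS3.

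The brush border is the layer of microvilli on the luminal face of absorptive enterocytes. Peptides left by gastric and pancreatic proteases are cut there by membrane-anchored enzymes into free amino acids and very short peptides, which carriers in the same membrane take up. Meprins cut within the chain, aminopeptidases remove residues from the amino end, DPP4 removes dipeptides ending in proline or alanine, and carboxypeptidase O and ACE work from the carboxyl end. DPP4 differs from the other members in being a serine peptidase, while the rest are zinc metallopeptidases. Several members are also known outside the gut lining in mammals: ANPEP as CD13 on myeloid cells, DPP4 as CD26 on T cells, and ACE on endothelium.

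Total counts ranged from 31284679 to 45492503 per library. All 16 measured macrophage markers had counts in every library, with a summed level of 1643 to 4125 FPKM in LPS+LR21 and 5549.6 to 7339.5 FPKM in LPS, FPKM being the fragment count per kilobase of transcript after scaling to library size. The 18 measured pan-epithelial genes, among them EPCAM and CDH1, summed to 514 to 1892.5 FPKM in LPS+LR21 and 231 to 352 FPKM in LPS, so epithelial transcripts were present in every sorted library. This list includes genes known mainly from intestine and was uneven. LPS+LR21 lay wholly above LPS for 8 of the 18, and for 12.3% of all tested genes. The 12 T cell markers summed to 143 to 383 FPKM in LPS+LR21 and 109 to 132 FPKM in LPS, and the 10 endothelial markers to 12.7 to 16.8 FPKM in LPS+LR21 and 14.0 to 36.8 FPKM in LPS. LR3 stood apart from LR1_2 and LR4 in having 18811 genes with a count, against 22493 and 24539. It also differed in marker levels. Against the LPS mean, the macrophage marker median was -2.03, -0.57 and -1.85 on the log2 scale of FPKM in LR1_2, LR3 and LR4. Of the LPS+LR21 libraries, LR3 was lowest for 0 of the 16 macrophage markers and for 15 of 16 pan-epithelial genes with a mean of at least 1 FPKM. In edgeR's test 1 of the 16 macrophage markers, VSIG4, a complement receptor gene, fell (log2 fold change -1.86, adjusted p = 0.0435), and none of the T cell or endothelial markers passed. All 16 macrophage markers had a fitted log2 fold change below 0, 13 of them with an unadjusted p under 0.05, and DESeq2 called 8 lower. Of all 20745 tested genes, 11723 were fitted below 0, and 955 were lower at an unadjusted p under 0.05. After adjustment edgeR called 0.0819% of them lower, and DESeq2 called 359 lower. At an unadjusted p under 0.05, 4 T cell markers were higher, and 1 endothelial marker was higher and 2 were lower, where 7.46% of all tested genes were higher. DESeq2 called 1 of each of these lists higher, and 1002 of all tested genes. The part of these marker levels in the peptidase differences was not tested, and in bulk RNA fewer cells of a type cannot be told apart from less RNA per cell.

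All 7 peptidases were detected in every library, and together they took 0.748%, 0.336% and 0.799% of all counts in LR1_2, LR3 and LR4, against 0.102%, 0.0824% and 0.104% in LPS1, LPS2 and LPS3. The meprin subunits, carboxypeptidase O, ACE and the aminopeptidases ANPEP and ENPEP averaged 7.42 to 11.6 times higher in FPKM in LPS+LR21 than in LPS; for ANPEP, LR4 was 15.1 times LR3. DPP4 averaged 2.62 times higher. For every member except ANPEP the lowest LPS+LR21 library lay above the highest LPS library, and for all 7 the lowest LPS+LR21 library was LR3.

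**Figure D1:**
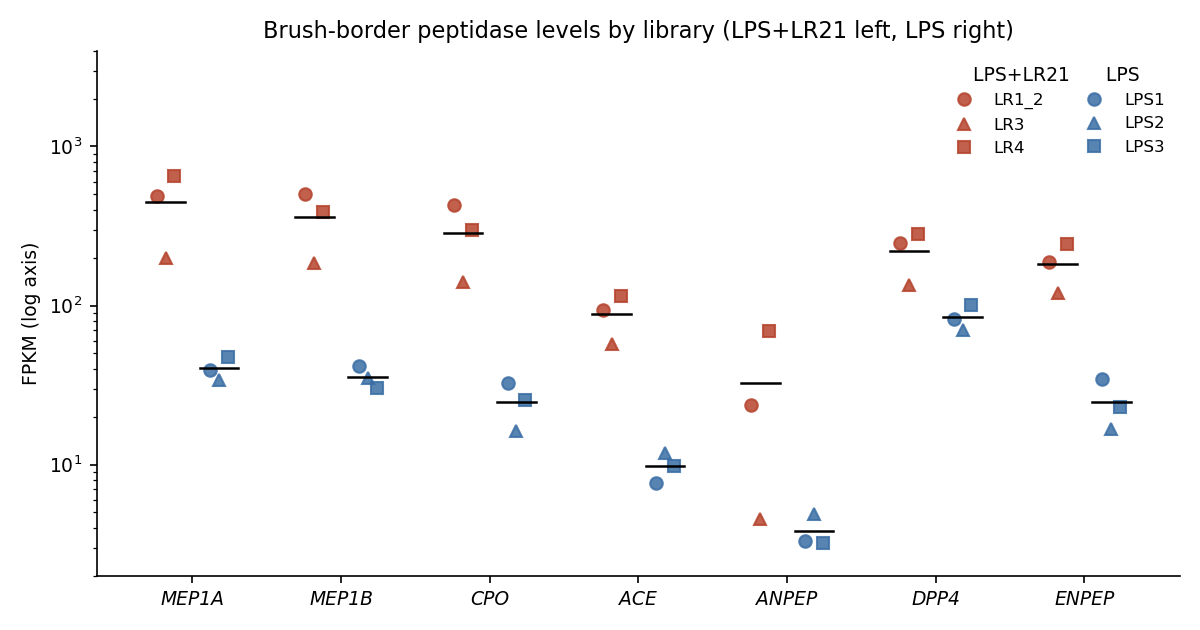
FPKM of each of the 7 peptidases on a log axis in the 3 LPS+LR21 libraries (red, left) and the 3 LPS libraries (blue, right), with the group mean as a black line. The groups are apart for 6 genes; for ANPEP the LR3 triangle, at 4.54 FPKM, lies among the LPS libraries.

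MEP1A encodes the alpha subunit of meprin, a metalloendopeptidase of the astacin family that cuts within peptide chains. It lies on chromosome 3 from 109660691 to 109674924, on the plus strand, in the coordinates of the deposited table, for which the labels and headers name no genome build. It had 488, 198 and 649 FPKM in LR1_2, LR3 and LR4, against 39.2, 34.2 and 47.3 FPKM in LPS1, LPS2 and LPS3. LR3 was the lowest of its group and still 4.19 times the highest LPS library. The means were 445 ± 229 FPKM in LPS+LR21 and 40.2 ± 6.63 FPKM in LPS (SD, n = 3 each), and the fitted log2 fold change was 3.28 ± 0.44 (SE).

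MEP1B encodes the beta subunit, which spans the membrane and tethers the alpha subunit to it (chromosome 2, 106020742 to 106051338, plus strand). It had 506, 184 and 385 FPKM in LR1_2, LR3 and LR4, against 41.8, 35.0 and 30.1 FPKM in LPS1, LPS2 and LPS3. Here LR1_2 was the highest library, whereas LR4 was highest for MEP1A. The log2 fold change was 3.18 ± 0.42 (SE).

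CPO encodes carboxypeptidase O, which in human is held to the enterocyte surface by a lipid anchor and removes acidic residues from the carboxyl end of peptides (chromosome 7, 11971431 to 11984891, minus strand). Its row carries 2 Entrez identifiers, of which 1 is in the RefSeq chicken gene table, as CPO. It had 426, 139.6 and 297 FPKM in LR1_2, LR3 and LR4, against 32.5, 16.2 and 25.5 FPKM in LPS1, LPS2 and LPS3. The groups did not overlap, and its log2 fold change of 3.38 ± 0.48 (SE) was the highest of the 7. The highest library was 3.05 times the lowest within LPS+LR21 and 2.00 times the lowest within LPS.

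ACE encodes angiotensin-converting enzyme, which removes a dipeptide from the carboxyl end of its substrates and is known for making angiotensin II (chromosome 27, 2300485 to 2316547, plus strand). It had 94.2, 57.0 and 115 FPKM in LR1_2, LR3 and LR4, against 7.69, 11.8 and 9.77 FPKM in LPS1, LPS2 and LPS3. LR3 stood closer to the other LPS+LR21 libraries for ACE than for MEP1A, MEP1B or CPO, with a highest library 2.02 times the lowest. The log2 fold change was 3.03 ± 0.34 (SE), with the smallest standard error of the 7.

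ENPEP encodes aminopeptidase A, which removes acidic residues from the amino end and converts angiotensin II to angiotensin III (chromosome 4, 57342737 to 57377109, minus strand). It had 188, 120.0 and 242 FPKM in LR1_2, LR3 and LR4, against 34.5, 16.7 and 23.1 FPKM in LPS1, LPS2 and LPS3. Its library order in LPS+LR21, LR4 above LR1_2 above LR3, was that of ACE and also of MEP1A, ANPEP and DPP4. The highest library was 2.02 times the lowest, as for ACE, and for DPP4 it was 2.07 times. The LPS libraries were ordered differently for ACE and ENPEP. The log2 fold change was 2.72 ± 0.39 (SE).

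ANPEP encodes aminopeptidase N, which removes neutral residues from the amino end and is a major protein of the mammalian brush border (chromosome 10, 20023232 to 20028644, minus strand). It was the lowest of the 7 in each library and the most uneven, with 23.8, 4.54 and 68.7 FPKM in LR1_2, LR3 and LR4, against 3.31, 4.85 and 3.22 FPKM in LPS1, LPS2 and LPS3. LR3 lay below LPS2, so the groups overlapped, and LR4 was 15.1 times LR3. In counts this was 4471, 766 and 8892 in LR1_2, LR3 and LR4, against 556, 773 and 597 in LPS1, LPS2 and LPS3, so the LR3 value does not rest on a handful of counts. The log2 fold change of 2.85 ± 0.72 (SE) had the largest standard error of the set. It was 1.95 ± 0.62 without LR4 and 3.42 ± 0.38 without LR3 (SE).

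DPP4 encodes dipeptidyl peptidase 4 (chromosome 7, 20761457 to 20855308, plus strand). It had 246, 136 and 280.4 FPKM in LR1_2, LR3 and LR4, against 81.9, 69.9 and 101 FPKM in LPS1, LPS2 and LPS3. The groups did not overlap, but LR3 was only 1.34 times the highest LPS library, and the log2 fold change of 1.22 ± 0.34 (SE) was the lowest of the 7. The T cell gene CD3E had 44.6, 131 and 75.4 FPKM in LR1_2, LR3 and LR4, against 27.5, 43.5 and 33.5 FPKM in LPS1, LPS2 and LPS3. Of the 12 T cell markers, 8 were highest of the LPS+LR21 libraries in LR3 and 3 were lowest there. Their part in the DPP4 values was not tested. The DPP4 row overlaps the row of the bicarbonate transporter gene SLC4A10 on the opposite strand, and strand handling in the counting is not stated. SLC4A10 had at most 540 counts in a library while DPP4 had at least 13803. No other member overlapped another gene in the table.

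In edgeR's quasi-likelihood fit over 20745 genes, 5 of the 7 members were past the threshold in the higher direction (Benjamini-Hochberg adjusted p under 0.05), where 0.974% of all tested genes were, and none was past it in the lower direction, where 0.0819% were. Since the set was chosen with this contrast known, nothing is read from that count. MEP1A, MEP1B, CPO, ACE and ENPEP were the 5, and ANPEP and DPP4 were not. All 7 had an unadjusted p under 0.05, as had 7.46% of all tested genes in the higher direction. The median log2 fold change was 3.03 over the 7 members, while that of all tested genes was -0.14. LPS+LR21 libraries lay wholly above LPS libraries for 6 of the 7 members and for 12.3% of all tested genes. The calls depend on single libraries: without LPS1, LPS2, LPS3, LR1_2 or LR4, 0 members and 0 genes in all passed edgeR's test, although all 7 members had an unadjusted p under 0.05 each time, as had 1022 to 1506 genes in the higher direction. Those fits tested 21659 to 22318 genes. Without LR3, all 7 members passed, among 1086 of 22486 tested genes in that direction, a larger share than in the main fit.

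The order of the 7 by level differed between the groups. In LPS+LR21 the order by mean FPKM was MEP1A (445), MEP1B (358), CPO (287), DPP4 (221), ENPEP (183), ACE (88.7) and ANPEP (32.3). From MEP1B down to ANPEP each gene was above the next in all 3 libraries. The ranges of neighbours overlapped, except that the range of ENPEP lay wholly above that of ACE. MEP1A was above MEP1B in 2 of the 3 libraries. In LPS the order was DPP4 (84.2), MEP1A (40.2), MEP1B (35.6), CPO (24.7), ENPEP (24.7), ACE (9.76) and ANPEP (3.80). There DPP4 was apart from MEP1A, ENPEP from ACE and ACE from ANPEP, while MEP1A and MEP1B, MEP1B and CPO, and CPO and ENPEP overlapped.

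Among 15950 protein-coding genes with an FPKM value, the peptidases held high ranks in the LPS+LR21 libraries. MEP1A ranked 74, 206 and 39 in LR1_2, LR3 and LR4, against 940, 1082 and 826 in LPS1, LPS2 and LPS3. DPP4 ranked 168, 321 and 122 in LPS+LR21, against 472, 547 and 413 in LPS. ANPEP ranked 1737, 5440 and 635 in LPS+LR21, against 5771, 4881 and 5982 in LPS. LR4, a library sorted for macrophages, thus had a meprin subunit gene among its 39 highest protein-coding genes.

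The 3 LPS+LR21 libraries differed in how the peptidases stood against other epithelial transcripts. Against the LPS mean, MEP1A, MEP1B, CPO, ACE and ENPEP were higher in LR3 by 2.30, 2.37, 2.50, 2.55 and 2.28 on the log2 scale of FPKM. The median of 16 pan-epithelial genes with a mean of at least 1 FPKM was higher there by 0.59. The medians of the lists closest in function lay between, at 1.99 for 8 uptake carriers, 1.62 for 6 other brush-border hydrolases and 1.27 for 13 other membrane peptidases, so LR3 levels above the pan-epithelial median were not limited to the members. These lists too were cut at a mean of 1 FPKM over both groups, so some genes entered only through LPS+LR21. In LPS, 14 pan-epithelial genes, 7 carriers, 4 hydrolases and 12 other membrane peptidases had that mean. The hydrolase gene NT5E had it in LPS alone and was left out. The medians carry this selection. In LR1_2 the same 5 peptidases were higher by 3.60, 3.83, 4.11, 3.27 and 2.93, against 2.67 for the pan-epithelial median, and in LR4 by 4.01, 3.44, 3.59, 3.56 and 3.29, against 2.39. In LR1_2 and LR4 the medians were 3.01 and 3.19 for the uptake carriers and 3.44 and 3.24 for the other brush-border hydrolases. Those of the other membrane peptidases were 2.69 and 1.86. In LR1_2 ENPEP was thus below the carrier median, and ACE and ENPEP were below the hydrolase median. ANPEP and DPP4 were higher by 0.26 and 0.69 in LR3, on either side of the pan-epithelial median there.

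**Figure D2:**
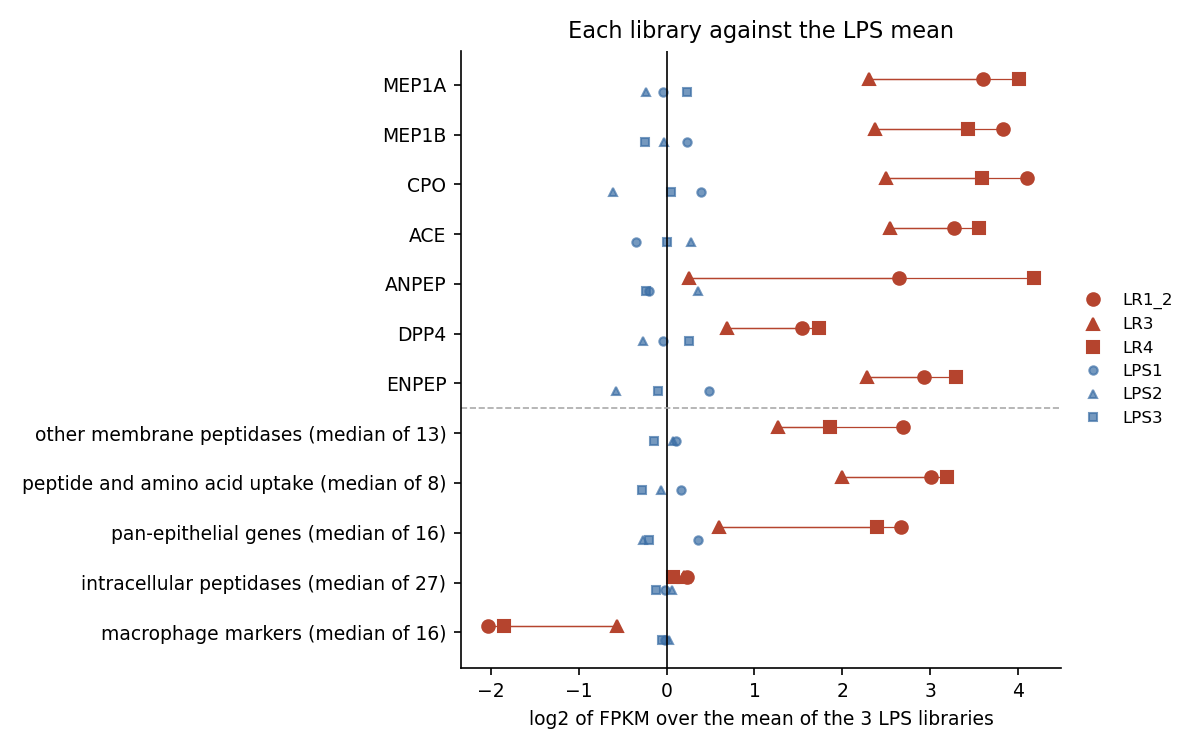
Each library's FPKM over the mean of the 3 LPS libraries, on the log2 scale, for the 7 members and for the median of 5 other gene lists, with LPS+LR21 libraries in red above the LPS libraries in blue. The medians use list genes with a mean of at least 1 FPKM over both groups. In LR3 (red triangles) MEP1A, MEP1B, CPO, ACE and ENPEP lie between 2.28 and 2.55, while the pan-epithelial median lies at 0.59.

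Each member was set within each library against the mean of those 16 pan-epithelial genes, as a difference of log2(FPKM + 0.1). The genes OCLN (0.30 FPKM in LPS, 2.76 in LPS+LR21) and RAB25 (0.68 in LPS, 3.41 in LPS+LR21) met the 1 FPKM mean only through LPS+LR21. The reference thus depends in part on the contrast itself. On this reference the groups were apart for 5 members and overlapped for ANPEP and DPP4. MEP1A stood at 3.87 ± 0.34 in LPS+LR21 and 2.43 ± 0.43 in LPS (SD, n = 3 each), and MEP1B at 3.60 ± 0.23 in LPS+LR21 and 2.25 ± 0.12 in LPS. CPO, ACE and ENPEP were likewise higher relative to these genes, by 1.58, 1.26 and 1.02, with no overlap between the groups for any of the 5, as was so in the higher direction for 0.883% of 20726 tested genes with an FPKM. In the lower direction 62.8% of those genes were apart. The same contrast chose the members, so nothing is read from their count. Uptake carriers and other brush-border hydrolases were not described separately on this reference. ANPEP stood at -0.46 ± 1.23 in LPS+LR21 and -0.96 ± 0.52 in LPS, and its groups overlapped. DPP4 stood at 2.96 ± 0.45 in LPS+LR21 and 3.49 ± 0.45 in LPS, and its groups overlapped too. Relative to EPCAM alone, which encodes an adhesion protein of epithelial cells, MEP1A, MEP1B and CPO were higher by 0.86, 0.76 and 0.99 without overlap, ACE and ENPEP by 0.68 and 0.43 with overlap, where 0.154% of the tested genes were apart in the higher direction. DPP4 relative to EPCAM stood at -1.08 ± 0.47 in LPS+LR21 and 0.04 ± 0.41 in LPS, without overlap. In that direction 82% of the tested genes were apart. ANPEP overlapped.

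**Figure D3:**
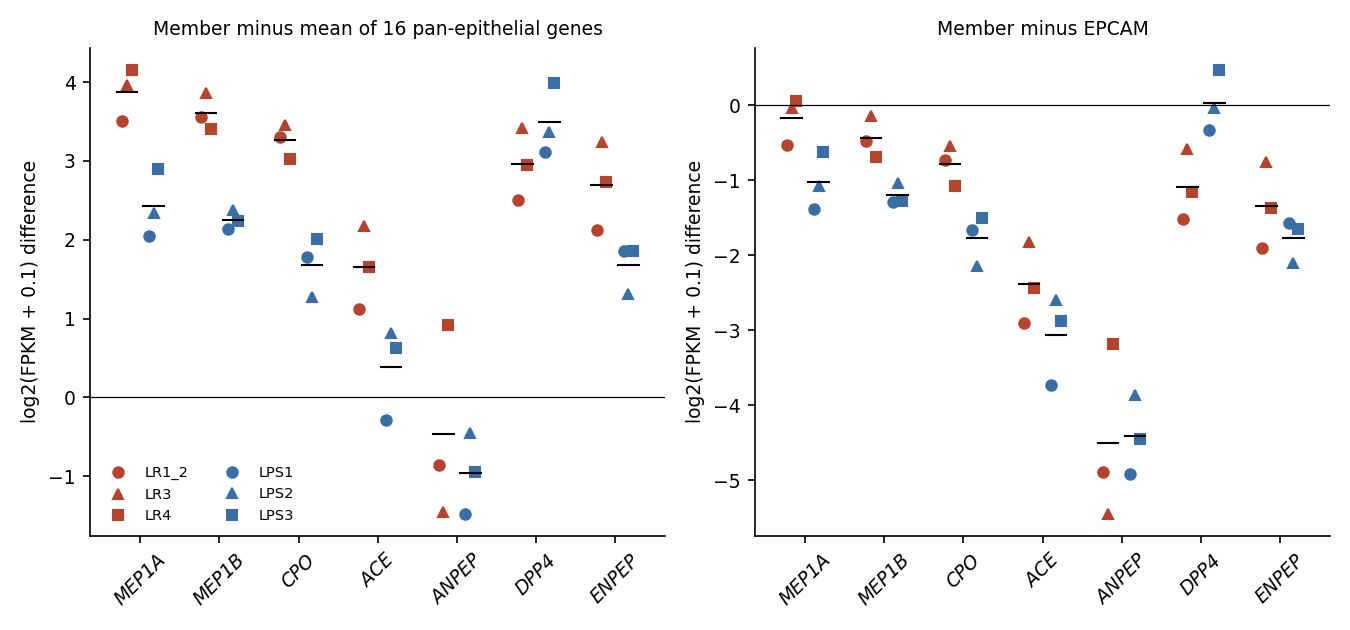
Level of each peptidase relative to the mean of 16 pan-epithelial genes (left) and to EPCAM (right), as differences of log2(FPKM + 0.1) in each LPS+LR21 library (red, left) and LPS library (blue, right), with group means as black lines. MEP1A, MEP1B and CPO are higher in LPS+LR21 in both panels, and DPP4 has the lower LPS+LR21 mean in both.

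Of the 21 ratios between 2 members within a library, 15 overlapped between the groups and 6 did not. The ratios share 7 genes and are not independent. Of 6 pairs with DPP4, 5 were apart, and of 15 pairs without it, 1 was. No share over other gene pairs was taken, so nothing is read from the count. The ratio of MEP1A to MEP1B in FPKM was 0.966, 1.08 and 1.69 in LR1_2, LR3 and LR4, against 0.937, 0.977 and 1.57 in LPS1, LPS2 and LPS3, so the groups covered nearly the same span. CPO over MEP1A was 0.872, 0.704 and 0.457 in LPS+LR21, against 0.828, 0.474 and 0.539 in LPS. ENPEP, ACE and ANPEP over MEP1A overlapped between the groups as well. The 6 that were apart were those of DPP4 with MEP1A, MEP1B, CPO, ACE and ENPEP, and CPO over ENPEP. CPO over ENPEP was 2.27, 1.16 and 1.23 in LPS+LR21, against 0.942, 0.973 and 1.11 in LPS, so LR3 was close to LPS3. DPP4 over MEP1A was 0.503, 0.683 and 0.432 in LPS+LR21, against 2.09, 2.05 and 2.13 in LPS. In FPKM every LPS+LR21 library thus had more MEP1A than DPP4, and every LPS library more DPP4 than MEP1A. In counts, LR3 had 26895 for MEP1A and 28344 for DPP4, so the order there depends on the gene lengths used. CPO over ANPEP ranged most widely of the 21, at 17.9, 30.7 and 4.32 in LPS+LR21, against 9.80, 3.34 and 7.92 in LPS. The ratio of the aminopeptidases, ENPEP over ANPEP, was 7.92, 26.4 and 3.53 in LPS+LR21, against 10.4, 3.43 and 7.15 in LPS.

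**Figure D4:**
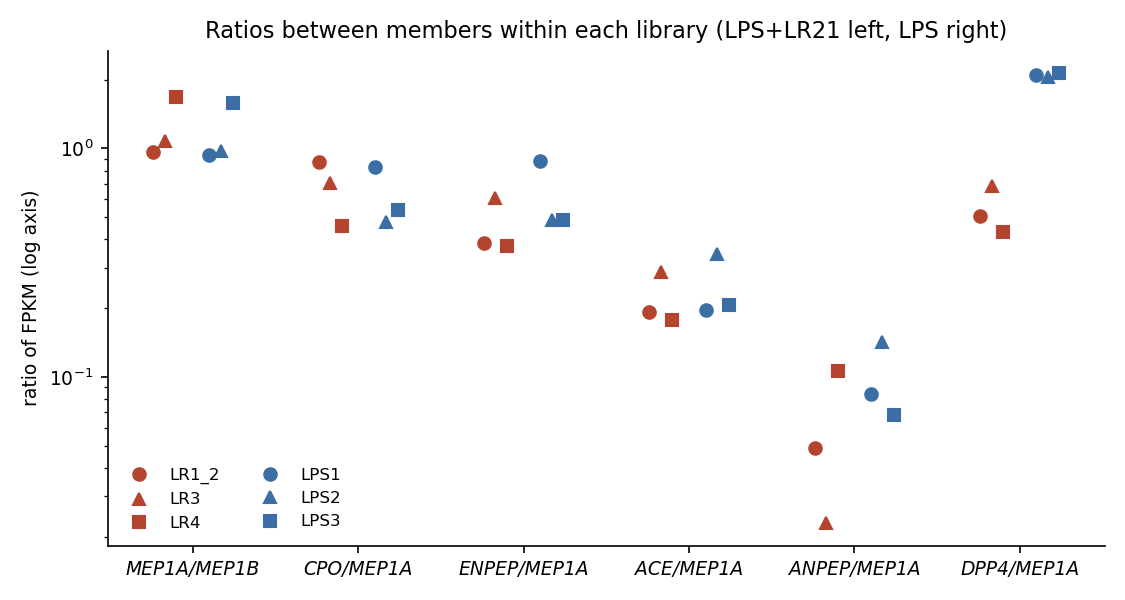
Ratio of FPKM for 6 of the 21 pairs of members on a log axis, in each LPS+LR21 library (red, left) and LPS library (blue, right). The groups overlap for MEP1A over MEP1B and for CPO, ENPEP, ACE and ANPEP over MEP1A, and are apart for DPP4 over MEP1A, where the LPS values lie between 2.05 and 2.13.

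Across the 6 libraries the members' values of log2(CPM + 0.5), with CPM the counts scaled to library size, had Pearson correlations with each other of 0.801 to 0.989. This is a description, since the points share the group difference and each library's composition. The lowest values were those of ANPEP. Among 8205 other genes with a symbol and a mean of at least 1 FPKM, those most like MEP1A by this measure over 6 libraries included CCNG2 and SLC16A5 (r from 0.997 to 1.00). Most like MEP1B were DMB1, PLS3 and SLC1A1 (0.996 to 0.997), and most like CPO were PUDP, SDHB and MPST (0.997 to 1.00). Most like ACE were ACSS1A, LAMB3 and SLC15A1 (0.995 to 0.998). Most like ANPEP were HMCN1, FGGY and NAPEPLD (0.992 to 0.993), most like DPP4 were FBXL21, CDCP1 and EMC2 (0.997 to 0.998), and most like ENPEP were SLC5A12, CHMP4C and AFDN (0.995 to 0.996). No gene was among the 3 most alike for more than 1 member. These values are the highest of 8205 correlations over only 6 points, so they too are a description.

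Of 22 other membrane peptidases tested, 3 rose in LPS+LR21, none fell and 19 did not pass (edgeR, Benjamini-Hochberg adjusted over all genes), where 0.974% of all tested genes rose. Their median log2 fold change was 0.79, against -0.14 over all genes. At an unadjusted p under 0.05, 9 were higher and 1 lower, where 7.46% of all tested genes were higher. LPS+LR21 lay wholly above LPS for 9 of the 22 and for 12.3% of all tested genes. For the 13 with a mean of at least 1 FPKM over the 6 libraries, the median against the LPS mean was 2.69, 1.27 and 1.86 on the log2 scale in LR1_2, LR3 and LR4. In LPS alone 12 of them had that mean. XPNPEP2, a membrane aminopeptidase that cuts before proline, was among those that rose and had 290.1, 91.1 and 222 FPKM in LR1_2, LR3 and LR4, against 32.0, 26.5 and 16.9 FPKM in LPS1, LPS2 and LPS3. TMPRSS2, a serine protease of epithelial membranes, also rose and had 28.8, 12.3 and 27.2 FPKM in LPS+LR21, against 5.43, 3.38 and 3.82 FPKM in LPS. For both genes the groups did not overlap and LR3 was the lowest LPS+LR21 library. The log2 fold changes were 2.85 ± 0.46 for XPNPEP2 and 2.27 ± 0.38 for TMPRSS2 (SE), each with adjusted p = 0.0381 in edgeR's test. None of the 22 passed when LPS1, LPS2, LPS3, LR1_2 or LR4 was left out. Without LR3, 8 rose, as did 1086 of all 22486 genes tested there.

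The other membrane peptidases named here were picked after their values were seen. DPEP1, a dipeptidase of intestinal and renal brush borders, had 694, 274 and 498 FPKM in LPS+LR21, against 156, 64.5 and 49.8 FPKM in LPS, and did not pass (adjusted p = 0.0748, edgeR). MME, the endopeptidase neprilysin, had a log2 fold change of 2.82 ± 0.61 and did not pass (SE; edgeR adjusted p = 0.0640). FAP, the closest relative of DPP4, lies on the same chromosome and is known from activated fibroblasts. It had 4.02, 12.8 and 3.95 FPKM in LPS+LR21, against 15.4, 23.3 and 17.2 FPKM in LPS, and did not pass (log2 fold change -1.49 ± 0.52 SE; edgeR adjusted p = 0.246). DPP4 over FAP was 61.2, 10.6 and 71.0 in LPS+LR21, against 5.32, 3.00 and 5.86 in LPS. Of 10 fibroblast markers tested, COL1A2 and COL3A1 fell by 2.30 and 2.40 on the log2 scale in LPS+LR21 (edgeR adjusted p = 0.0344 and 0.0381), 8 did not pass, and 3 of the 10 had a fitted log2 fold change above 0. The 11 fibroblast markers summed to 14.6 to 22.1 FPKM in LPS+LR21 and 34.8 to 56.5 FPKM in LPS, and their part in the FAP values was not tested. LNPEP, an aminopeptidase related to ANPEP and ENPEP, had a log2 fold change of -0.79 ± 0.47 and did not pass.

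**Figure D5:**
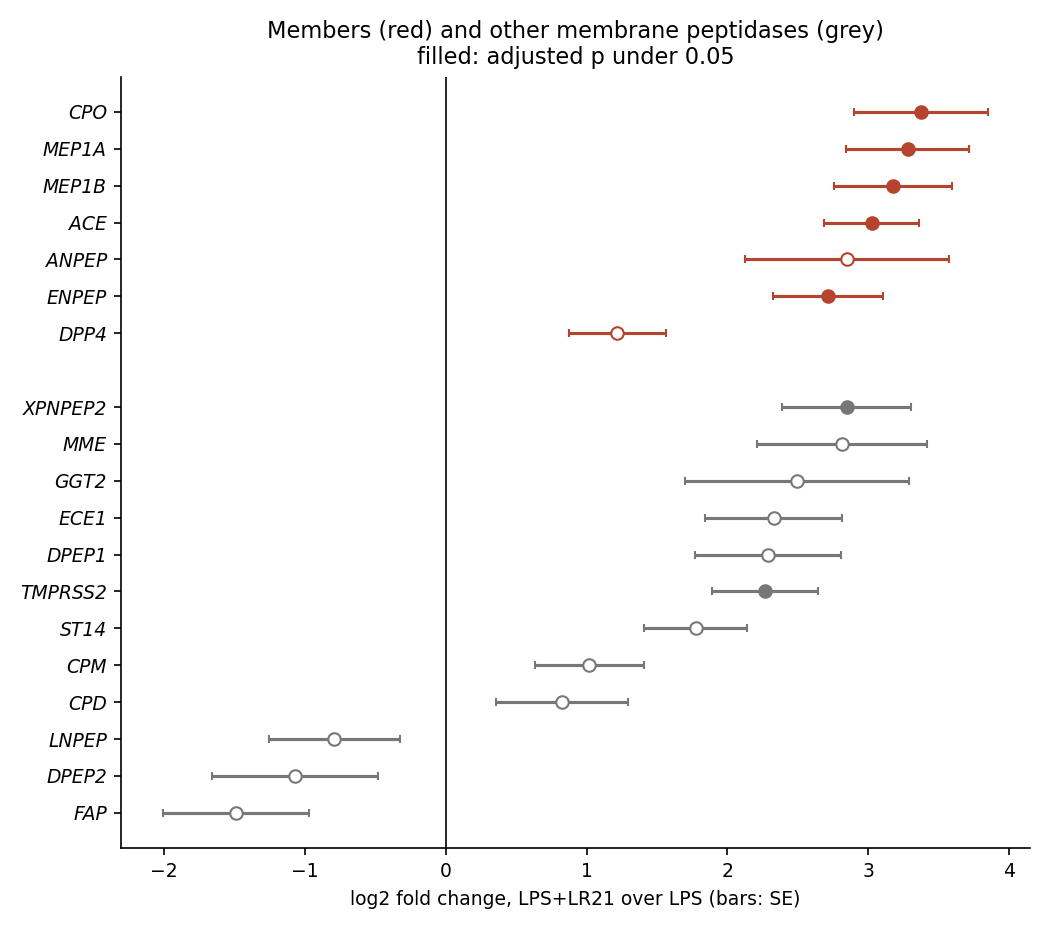
Fitted log2 fold change, LPS+LR21 over LPS, with SE bars, for the 7 members (red) and 12 of the other membrane peptidases with a mean of at least 1 FPKM over the 6 libraries (grey); filled points had an adjusted p under 0.05. DPP4, at 1.22, lies apart from the other members at 2.72 to 3.38, and FAP, DPEP2 and LNPEP lie below 0.

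Peptidases that act before and after the brush border were measured as well. Of 28 intracellular peptidases, which finish peptides inside cells, none passed edgeR's test in either direction. At an unadjusted p under 0.05, 6 were higher, as were 7.46% of all tested genes, and 3 were lower. DESeq2 called 3 higher and 2 lower. Their median log2 fold change was 0.09. Those of smallest p were ACY1, an aminoacylase, at 139, 33.5 and 90.4 FPKM in LPS+LR21, against 26.0, 24.7 and 12.7 FPKM in LPS, DNPEP, an aspartyl aminopeptidase, with a log2 fold change of 1.05 ± 0.33, and the lysosomal TPP1, with -1.33 ± 0.42 (SE). Secreted proteases of stomach and pancreas were low: 16 of 23 were in the table, 6 had enough counts to be tested, none passed edgeR's test, none had an unadjusted p under 0.05 and DESeq2 called none. PGC and CPB2 had the smallest p of the 6. The summed level of the list was 2.27 to 4.68 FPKM in LPS+LR21 and 2.45 to 6.70 FPKM in LPS. The pancreatic carboxypeptidase genes CPA1 and CPB1, relatives of CPO, were at or below 0.71 FPKM in every library. CPA5, of the same family, had 2.64, 1.10 and 1.87 FPKM in LPS+LR21, against 0, 4.76 and 1.27 FPKM in LPS.

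ACE and ENPEP belong to the angiotensin system. Of 11 other genes of that system tested, 1 rose, none fell and 10 did not pass, where 0.974% of all tested genes rose. Their median log2 fold change was -0.56. At an unadjusted p under 0.05, 2 were higher, where 7.46% of all tested genes were, and 1 was lower. MME was 1 of the 2 higher, with a log2 fold change of 2.82 ± 0.61 (SE). MME, LNPEP and the gene that rose are also counted among the other membrane peptidases. The precursor gene AGT had 18 counts in LR1_2, 14 in LR4 and 0 in the other libraries, and was not tested. The receptor genes AGTR1 and AGTR2 were at or below 0.45 FPKM in every library.

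Carriers that take up the products of brush-border digestion and the other hydrolases of that membrane were also described by count. Of all tested genes, 0.974% rose in edgeR's test. Of 10 carriers, 5 rose, none fell and 5 did not pass, with a median log2 fold change of 2.68. The 5 were the amino acid carrier genes SLC6A19, SLC3A1, SLC7A9 and SLC1A1 and the peptide carrier gene SLC15A1, with log2 fold changes from 2.67 to 2.93 and adjusted p from 0.0344 to 0.0485 in edgeR's test. Of 9 other brush-border hydrolases tested, 3 rose, none fell and 6 did not pass, with a median of 1.86. They were the phosphodiesterase family genes ENPP7 and ENPP3 and the phospholipase gene PLB1, at log2 fold changes of 3.65, 3.29 and 2.73. Of the 18 pan-epithelial genes, EPCAM and ESRP2, an epithelial splicing factor, rose, none fell and 16 did not pass, with a median of 1.87. All 18 had a fitted log2 fold change above 0. At an unadjusted p under 0.05, 14 were higher, as were 7.46% of all tested genes, and DESeq2 called 12 higher. No gene of these lists passed when LPS1, LPS2, LPS3, LR1_2 or LR4 was left out.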

How the data were processed

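Per the labels, libraries were made from polyadenylated RNA. Tools named in the submitters' processing notes are cutadapt 1.9, HISAT2 2.0.4, StringTie 1.3.4d and edgeR, with no roles. The authors deposited, per the file headers, an unnormalized count and an FPKM value per gene and library. Neither build nor strand handling is stated. The LR1_2, LR3 and LR4 count columns match the LPS+LR21 group but no single title, and the 3 FPKM columns of that group were not used. In its place, a choice made with the values in view, FPKM was computed anew in each of the 6 libraries, as counts over the column total and over a gene length derived from the LPS count and FPKM columns. Of genes reaching 100 counts in every LPS library, all 9889 came within 4.20% of the deposited LPS value, and 33.5% came within 1%. The lengths were derived from those same LPS columns, so this does not check the LPS+LR21 values. No FPKM was obtained for 1226 genes.

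Groups were compared with edgeR 4.0.16 (R 4.3.3) on 20745 genes kept by filterByExpr, with TMM factors, glmQLFit and glmQLFTest and no covariate, two-sided, Benjamini-Hochberg adjusted over all tested genes, threshold 0.05. The standard error is the log2 fold change over the square root of F. Scripts were tested on simulated data that varied less between libraries than these data, so that test gives no error rate for the calls here. Alternatives were DESeq2 1.42.0, its size factors in edgeR, no filter, a mean of at least 1 FPKM, and leaving out each library. Separate birds are not stated, so a p-value reflects the spread between these libraries alone, which may be technical. Members and lists were chosen with earlier results of these data known: 12 lists with 224 symbols, 177 of them in the table. Named were all members, list genes past the threshold, otherwise up to 3 of smallest p, and the 3 genes most correlated with each member; some genes these rules name are not reported here. A count of 3 corresponds to 0.0659 to 0.0959 CPM.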

Additional observations from a re-analysis of the deposited data

How the results depend on the processing

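No paired analysis was possible because the LPS+LR21 columns carry numbers that match no sample title. No label states a pairing of libraries between the groups either, so matching column names alone would not have given pairs. Over 10 alternatives and 7 members (70 values), every log2 fold change stayed above 0, between 1.08 and 3.80. The members were chosen with this contrast known and every alternative reused these libraries, so the range is a description and gives no support. DESeq2 passed all 7 members, and in all 1002 genes higher and 359 lower of 20745 tested. It called 8 other membrane peptidases, 6 other brush-border hydrolases, 7 uptake carriers, 3 intracellular peptidases, 2 angiotensin genes and 12 pan-epithelial genes higher. Of these lists it called 1 other membrane peptidase and 2 intracellular peptidases lower. Without the count filter 5 other membrane peptidases and 2 angiotensin genes were higher. With a mean of at least 1 FPKM, 5 other membrane peptidases were higher and 51 genes lower in all. Over the fits that left out 1 library, the counts of higher calls ran from 0 to 1086 for all genes, 0 to 7 for the members, 0 to 8 for other membrane peptidases, 0 to 4 for other brush-border hydrolases, 0 to 3 for intracellular peptidases, 0 to 2 for angiotensin genes, 0 to 7 for uptake carriers and 0 to 14 for pan-epithelial genes, and lower calls over all genes from 0 to 859. Each upper end is without LR3 and each 0 without another library, by edgeR; fewer libraries were fitted, and unadjusted p under 0.05 still held for 1022 to 2199 genes higher and 621 to 1907 lower. The share of higher calls was 92.2% in the main fit, 73.6% with DESeq2, 82.2% with a mean of at least 1 FPKM and 55.8% without LR3. DPP4 did not pass in the main fit (edgeR adjusted p = 0.145) and passed with DESeq2 (adjusted p = 0.00892) and without LR3 (edgeR adjusted p = 0.00958); the cause was not tested.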

Other observations

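Regulators of the enterocyte programme were measured in the same libraries. Of 15 intestinal transcription factor genes, 3 rose in LPS+LR21, none fell and 12 did not pass (edgeR, Benjamini-Hochberg adjusted over all genes), where 0.974% of all tested genes rose. Their median log2 fold change was 1.86. At an unadjusted p under 0.05, 13 were higher, as were 7.46% of all tested genes, and 1 was lower. DESeq2 called 12 higher and 1 lower. Neither these 3 nor any other gene passed edgeR's test without LPS1, LPS2, LPS3, LR1_2 or LR4. ISX, an intestine-specific homeobox gene, was among them and had 39.4, 18.5 and 38.8 FPKM in LR1_2, LR3 and LR4, against 8.45, 4.87 and 6.70 FPKM in LPS1, LPS2 and LPS3, with no overlap between the groups. The median of the 13 factors with a mean of at least 1 FPKM, against the LPS mean, was 2.48, 0.74 and 2.54 on the log2 scale in LR1_2, LR3 and LR4. The pan-epithelial median in LR3 was 0.59 and that of the uptake carriers 1.99.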
